A study of Mus musculus with 28 samples.

Results

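The endothelial genes *Pecam1*, *Cdh5*, *Kdr*, *Flt1*, *Tek*, *Tie1*, *Emcn*, *Vwf*, *Eng* and *Egfl7* were examined in bulk RNA-sequencing of mouse tail tendon. These 10 genes, out of 25719 counted, were chosen for their established expression in blood vessel endothelium, with earlier results of these data known. All 10 were found in the annotation. The 28 libraries, each from 1 mouse of the C57BL/6 background, came from homogenized tail tendon fascicles: 7 WT and 8 Fosl-2(Tg) mice with the early phenotype and 6 WT and 7 Fosl-2(Tg) mice with the established phenotype. Early mice were 6 to 8 weeks old and established mice were older than 14 weeks and at most 24. Fosl-2(Tg) mice carry a randomly inserted murine *Fosl2* transgene under the H2Kb promoter of major histocompatibility complex class I, which is not restricted to a cell type, linked to eGFP, whereas the WT controls were non-transgenic mice of the same breeding. All 15 early mice were male, while the established mice comprised 11 females and 1 male of each genotype, so that stage and sex can hardly be told apart.

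Between 9645598 and 66894396 counts per library fell on genes, and levels are given as CPM, the counts of a gene scaled to a common library size by TMM. The *Fosl2* level, in which the transgene and the endogenous gene are counted together, ranged from 58.8 to 136 CPM in early WT, from 63.4 to 156 CPM in early Fosl-2(Tg), from 78.1 to 169 CPM in established WT and from 121 to 160 CPM in established Fosl-2(Tg) mice, with overlap of the genotypes at both stages. The tendon label matched its markers, since the 6 tendon genes summed to at least 1530 CPM in every library. Their lowest sums lay in the established Fosl-2(Tg) group (1530 to 25800 CPM), below the lowest value of any other group (18300 CPM in established WT). Libraries also differed in skeletal muscle transcripts. All 24 genes of a skeletal muscle list had counts in every group, and they held 0.0512% to 2.62% of the counts in early WT, 0.21% to 2.97% in early Fosl-2(Tg), 0.0317% to 6.91% in established WT and 0.0236% to 2.81% in established Fosl-2(Tg) libraries.

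Endothelial cells line all blood vessels, seal them through homophilic adhesion molecules at their junctions, and are guided by vascular endothelial growth factor (VEGF) and angiopoietin signals through receptor tyrosine kinases. Tendon is sparsely vascularized, its vessels running mainly in the sheaths and the loose tissue between fascicles, whereas skeletal muscle holds a dense capillary bed. In bulk tissue, fewer endothelial cells and less RNA per endothelial cell cannot be told apart.

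Promoter sequences of 3 members are shown because the libraries later separated *Tie1*, which varied together with most other members, from *Tek* and *Eng*, which did not. Each run holds the 200 bases before the start of the Ensembl canonical transcript on GRCm39, read 5′ to 3′ on the strand of the gene, with matches to AGGAA or CGGAA, the core motifs of ETS transcription factors in endothelial promoters, in capitals on either strand (TTCCT and TTCCG when reversed). The regions are chr4:118347259-118347458 (minus strand) for *Tie1*, chr4:94627091-94627290 (plus) for *Tek* and chr2:32536340-32536539 (plus) for *Eng*.
Tie1: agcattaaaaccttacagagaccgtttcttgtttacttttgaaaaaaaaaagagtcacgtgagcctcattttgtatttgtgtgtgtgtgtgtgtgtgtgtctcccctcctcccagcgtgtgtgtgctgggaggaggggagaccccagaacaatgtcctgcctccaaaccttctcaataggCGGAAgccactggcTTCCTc
Tek: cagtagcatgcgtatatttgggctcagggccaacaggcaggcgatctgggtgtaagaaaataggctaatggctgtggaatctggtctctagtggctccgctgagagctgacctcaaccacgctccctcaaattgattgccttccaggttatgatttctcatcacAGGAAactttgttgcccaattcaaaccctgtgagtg
Eng: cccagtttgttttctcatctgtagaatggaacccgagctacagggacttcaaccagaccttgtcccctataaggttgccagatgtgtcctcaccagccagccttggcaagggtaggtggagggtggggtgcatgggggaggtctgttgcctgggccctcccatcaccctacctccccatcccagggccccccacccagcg

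The *Tie1* run held 1 match of each motif within 20 bases of the start. *Tek* had 1 match and *Eng* none. Of the members that varied with *Tie1*, *Egfl7* also had none, *Pecam1*, *Kdr* and *Vwf* had 1 each, *Flt1* had 2 and *Emcn* had 4. A relation of matches to the variation of the genes was not tested. Over the 9 members whose promoters were read, 7 promoters held at least 1 match, beside 65.1% of the 21757 promoters of protein-coding genes of the same length. A match describes letters in this window and not a bound site.

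Among the adhesion and surface molecules, *Pecam1* (chr11:106543689-106641454, minus strand, GRCm39) encodes CD31, a homophilic adhesion molecule of endothelial junctions that platelets and leukocytes also carry. *Pecam1* had a lowest, median and highest level of 0.312, 2.6 and 14.1 CPM in early WT and of 1.81, 8.72 and 14.9 CPM in early Fosl-2(Tg) mice. In established mice these levels were 1.41, 6.28 and 15.5 CPM in WT and 1.16, 2.23 and 12.7 CPM in Fosl-2(Tg). The ranges overlapped almost fully between genotypes, and within every group the highest mouse was many times above the lowest.

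*Cdh5* (chr8:104828231-104871143, plus strand) encodes VE-cadherin, the cadherin of endothelial adherens junctions. *Cdh5* had a lowest, median and highest level of 0.728, 3.3 and 18.2 CPM in early WT and of 1.89, 9.09 and 12.0 CPM in early Fosl-2(Tg) mice. In established mice *Cdh5* lay at 0.737, 5.84 and 19.7 CPM in WT and at 0.453, 1.07 and 8.56 CPM in Fosl-2(Tg) mice. The established Fosl-2(Tg) group was the lowest of the 4 by its median, but its mice overlapped with WT mice. *Emcn* (chr3:137046794-137138999, plus strand), the sialomucin endomucin of capillaries and veins, was the scarcest member, between 0 and 2.31 CPM, with at most 3 counts in 6 of the 28 libraries. Its group medians were 0.433 CPM in early WT, 0.973 CPM in early Fosl-2(Tg), 0.465 CPM in established WT and 0.474 CPM in established Fosl-2(Tg) mice. The single library without an *Emcn* count, early WT replicate 7, allows a level of up to 0.107 CPM at 3 counts.

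Of the VEGF receptors, *Kdr* (chr5:76093487-76139884, minus strand) encodes VEGFR2, the main signalling receptor, and *Flt1* (chr5:147498414-147662826, minus strand) encodes VEGFR1, which binds VEGF and limits signalling through VEGFR2. *Kdr* ranged from 0.733 to 5.21 CPM (median 3.21) in early WT and from 0.556 to 4.51 CPM (median 2.83) in early Fosl-2(Tg) mice. In established mice *Kdr* ranged from 1.31 to 9.64 CPM (median 2.38) in WT and from 1.76 to 3.25 CPM (median 2.47) in Fosl-2(Tg). The established Fosl-2(Tg) mice were the most uniform group for *Kdr*, with a highest level 1.84 times the lowest, against 7.35 times in established WT mice. *Flt1* ranged from 0.533 to 9.08 CPM (median 1.95) in early WT, from 0.445 to 6.26 CPM (median 4.99) in early Fosl-2(Tg) and from 2.12 to 13.1 CPM (median 3.93) in established WT mice. Established Fosl-2(Tg) mice ranged from 1.71 to 21.2 CPM (median 3.9), where replicate 7 stood alone at 21.2 CPM and the next mouse reached 5.65 CPM.

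The TIE receptors differed strongly in level. *Tek* (chr4:94627291-94763224, plus strand) encodes TIE2, the receptor for angiopoietins, and *Tie1* (chr4:118328385-118347261, minus strand) encodes its partner, which has no angiopoietin ligand of its own. *Tek* ranged from 4.17 to 25.1 CPM (median 15.4) in early WT and from 4.01 to 18.7 CPM (median 12.0) in early Fosl-2(Tg) mice. In established mice *Tek* ranged from 13.3 to 19.5 CPM (median 16.3) in WT and from 12.0 to 28.5 CPM (median 17.9) in Fosl-2(Tg). No mouse fell below 4.01 CPM for *Tek*. *Tie1* was near its detection limit in many mice, with at most 3 counts in 6 libraries and no count in early WT replicate 1, which allows up to 0.2 CPM at 3 counts. Its group medians were 0.92 CPM in early WT, 2.17 CPM in early Fosl-2(Tg), 1.3 CPM in established WT and 0.359 CPM in established Fosl-2(Tg) mice, with a highest level of 5.42 CPM in established WT replicate 5.

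*Eng* (chr2:32535543-32574661, plus strand) encodes endoglin, a TGF-β co-receptor of endothelium that mesenchymal stromal cells and macrophages also express. *Eng* was the steadiest member, between 8.95 and 22.0 CPM over all 28 mice, with group medians of 15.7 CPM in early WT, 13.6 CPM in early Fosl-2(Tg), 15.2 CPM in established WT and 14.8 CPM in established Fosl-2(Tg) mice. *Vwf* (chr6:125523737-125663642, plus strand) encodes von Willebrand factor, which endothelial cells and megakaryocytes store and secrete. *Vwf* ranged from 1.99 to 10.7 CPM (median 4.0) in early WT, from 2.78 to 7.15 CPM (median 4.97) in early Fosl-2(Tg) and from 1.24 to 13.9 CPM (median 4.44) in established WT mice. Established Fosl-2(Tg) mice ranged from 1.56 to 27.1 CPM (median 4.13), with replicate 7 the highest. *Egfl7* (chr2:26468286-26486789, plus strand), a secreted endothelial matrix protein whose gene hosts miR-126, lay between 1.98 and 8.91 CPM, with group medians of 3.03 CPM in early WT, 4.02 CPM in early Fosl-2(Tg), 3.92 CPM in established WT and 3.91 CPM in established Fosl-2(Tg) mice. *Eng* overlaps *Fpgs* on the opposite strand, and *Egfl7* overlaps *Agpat2* on the opposite and *Gm20532* on the same strand. Since the strand setting of the counting was not stated, reads shared with these neighbours could not be told apart.

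Per kilobase of exon, the median level over all mice was highest for *Tek* (2.57 CPM per kb) and *Eng* (1.88), followed by *Cdh5* (1.08), *Pecam1* (0.596), *Egfl7* (0.453), *Kdr* (0.285), *Flt1* (0.285), *Vwf* (0.269), *Tie1* (0.212) and *Emcn* (0.097). The order was not tested, and the ranges over mice of all neighbours in it overlapped. *Tek* exceeded *Tie1*, its partner receptor, in all 28 libraries.

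**Figure D1:**
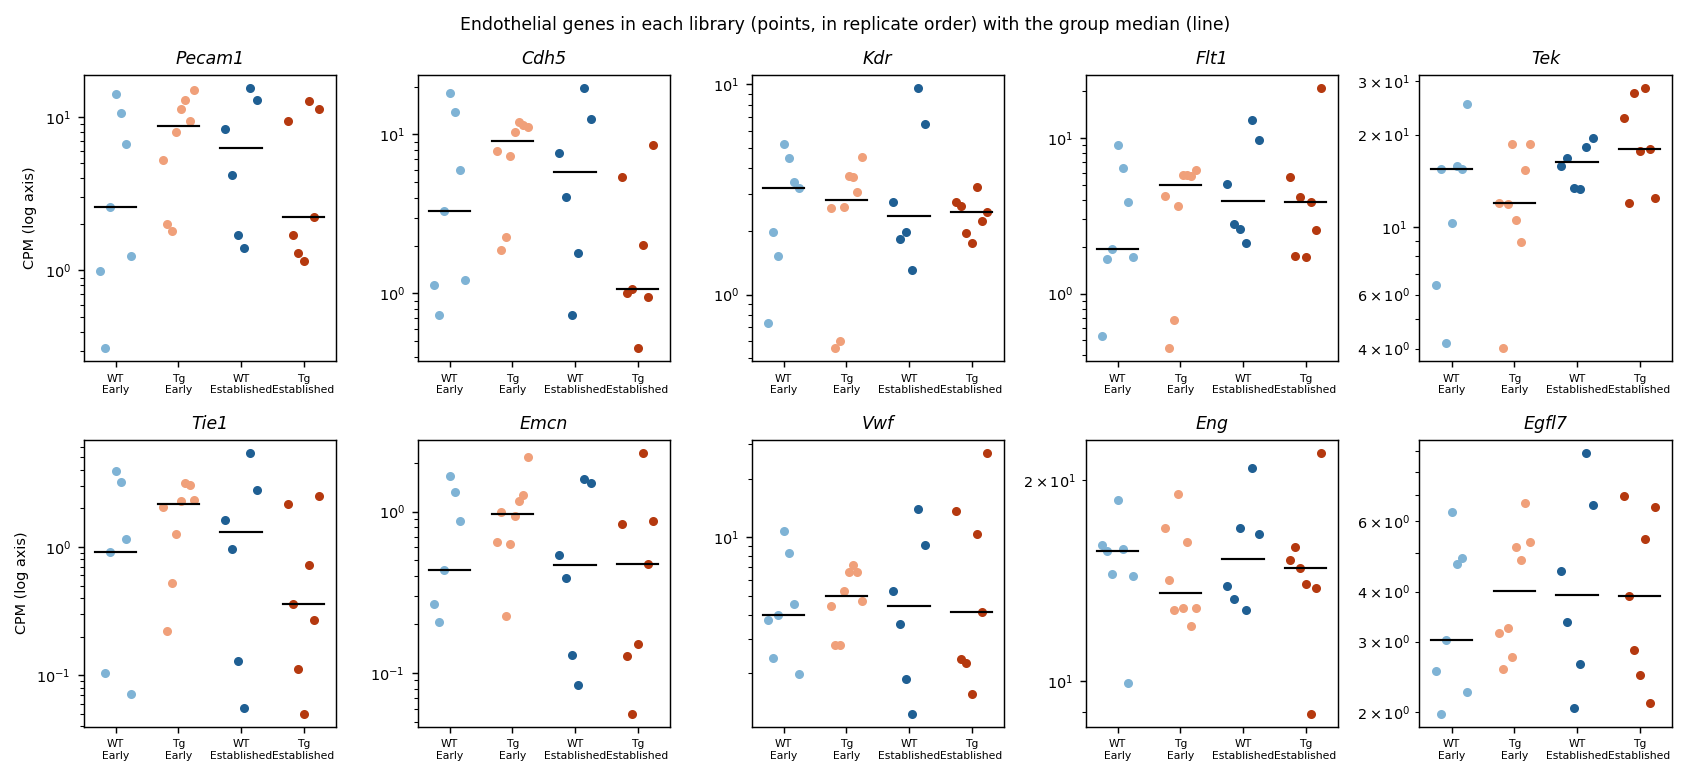
Level of each endothelial gene in CPM on a log axis, with 1 point per library in replicate order and a line at the median of each of the 4 groups (7 WT and 8 Fosl-2(Tg) early, 6 WT and 7 Fosl-2(Tg) established). Libraries without a count (*Tie1* and *Emcn*, 1 each) cannot be drawn on this axis. *Tek* and *Eng* stayed above 4 and 8 CPM, whereas *Pecam1*, *Cdh5* and *Tie1* spread widely within each group and overlapped between genotypes.

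To ask whether the transgene was accompanied by a change in endothelial transcripts, each stage was tested for a difference of Fosl-2(Tg) from WT mice. None of the 10 genes differed between genotypes in the early phenotype (edgeR's quasi-likelihood test, 0 called at FDR of at most 0.05, 0 with an unadjusted p under 0.05, 0 called by DESeq2), where 0.0396% of 15138 genes tested were called. Of these 15138 genes, 917 had an unadjusted p under 0.05, and DESeq2 called 0.118% of 21119. All 10 members had passed the filter on low counts at both stages. The early log2 fold changes lay between -0.13 ± 0.42 (SE) for *Kdr* and 0.65 ± 0.62 for *Pecam1*, with FDR from 0.909 to 0.999, and 6 of the 10 were above 0. For *Pecam1*, the interval of 2 SE spanned -0.58 to 1.89, so that the comparison was imprecise for this gene. *Eng* had the narrowest interval, from -0.3 to 0.24 around -0.03.

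In the established phenotype 6.51% of 15862 genes were called, 4213 had an unadjusted p under 0.05, and DESeq2 called 9.92% of 21971. Again none of the 10 members passed (0 called, 0 with an unadjusted p under 0.05, 0 by DESeq2). *Cdh5* had the lowest fold change, at -1.46 ± 0.77 on the log2 scale (0.363 times the WT level, FDR = 0.239), followed by *Tie1* at -1.04 ± 0.94 (FDR = 0.494) and *Kdr* at -0.70 ± 0.42 (FDR = 0.295). *Vwf* had the highest, at 0.61 ± 0.72 (FDR = 0.608), and *Tek* was at 0.30 ± 0.20 (FDR = 0.36). *Flt1* (0.01 ± 0.63), *Eng* (-0.06 ± 0.17), *Emcn* (-0.08 ± 0.83), *Egfl7* (-0.11 ± 0.38) and *Pecam1* (-0.36 ± 0.71) lay within 1 SE of no difference. The median over the 10 genes was 0.20 early and -0.09 established. The genotypes overlapped for all 10 genes at both stages, where 0.0528% of all genes early and 3.81% established had no overlap. The median muscle share, which moved with most of these genes as described further on, was 0.499% in early WT against 1.39% in early Fosl-2(Tg) and 0.921% in established WT against 0.202% in established Fosl-2(Tg) libraries. With the muscle score as a covariate, the established *Cdh5* value was -0.66 and the established *Tie1* value 0.24. The established *Vwf* value was 1.15 ± 0.38 (edgeR's quasi-likelihood test, unadjusted p = 0.00956, FDR = 0.0686), and no member passed at either stage.

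In the same established comparison, 2 of 6 tendon genes fell, and of the lymphatic genes 1 fell and 1 rose. *Tnmd* (tenomodulin, a tendon membrane protein) fell by 2.03 on the log2 scale (SE 0.53, FDR = 0.0386) and *Scx* (the tendon transcription factor scleraxis) fell by 1.27 (SE 0.34, FDR = 0.0444). *Prox1*, the master regulator of lymphatic endothelium, ranged from 1.25 to 3.36 CPM in established WT and from 0.353 to 0.913 CPM in established Fosl-2(Tg) mice without overlap, a log2 fold change of -1.67 ± 0.30 (FDR = 0.0128). *Lyve1*, a hyaluronan receptor of lymphatic endothelium and resident macrophages, went the other way, from 53.1 to 108 CPM in WT and from 72.6 to 155 CPM in Fosl-2(Tg) (log2 fold change 0.68 ± 0.19, FDR = 0.0456). The other 3 tested genes of the 6 lymphatic genes did not pass.

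The change of the genotype effect with stage was tested by an interaction term. Over all genes, 7.43% of 16082 were called, 4070 had an unadjusted p under 0.05, and DESeq2 called 7.97% of 22319. Of the 10 members, 0 passed (0 with an unadjusted p under 0.05, 0 by DESeq2). *Cdh5* differed most, at -1.81 ± 1.02 (FDR = 0.264). Established and early mice were then compared within each genotype, a comparison that can hardly separate age from sex, with 1 established male of each genotype. With sex as a covariate, 0 of 10 members passed in either genotype, where 2.69% of all genes passed in WT and 30.4% in Fosl-2(Tg) mice. In WT mice 0 of 10 members passed (0 with an unadjusted p under 0.05, 0 by DESeq2), against 5.81% of genes. Of all 16082 genes, 3603 had an unadjusted p under 0.05 there, and DESeq2 called 6.99% of 22319. In Fosl-2(Tg) mice 0 of 10 passed as well, against 47.8% of genes. *Cdh5* and *Tek* had an unadjusted p under 0.05, as did 8795 of 16082 genes. *Cdh5* was at -1.54 ± 0.72 (FDR = 0.0768) and *Tek* at 0.66 ± 0.29 (FDR = 0.0661) in established relative to early Fosl-2(Tg) mice. *Tek* passed when WT early replicate 3 (0.65, FDR = 0.0424) or 7 (0.66, FDR = 0.0494), Fosl-2(Tg) early replicate 4 (0.76, FDR = 0.0417) or 8 (0.75, FDR = 0.0448), or Fosl-2(Tg) established replicate 2 (0.74, FDR = 0.0495) or 7 (0.73, FDR = 0.0485) was left out, and *Cdh5* passed without the last of these (-2.22, FDR = 0.0184). With the muscle score as a covariate, *Flt1* (1.44), *Tek* (0.80), *Vwf* (1.48) and *Egfl7* (0.59) were higher in established than in early Fosl-2(Tg) mice (FDR of 0.00266, 0.0401, 0.000592 and 0.0116), where 43.1% of all genes passed. Among established Fosl-2(Tg) mice, *Flt1* and *Vwf* were highest in replicate 7 (21.2 and 27.1 CPM, the next mouse at 5.65 and 13.7 CPM). The fit with this covariate was not repeated without that library.

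**Figure D2:**
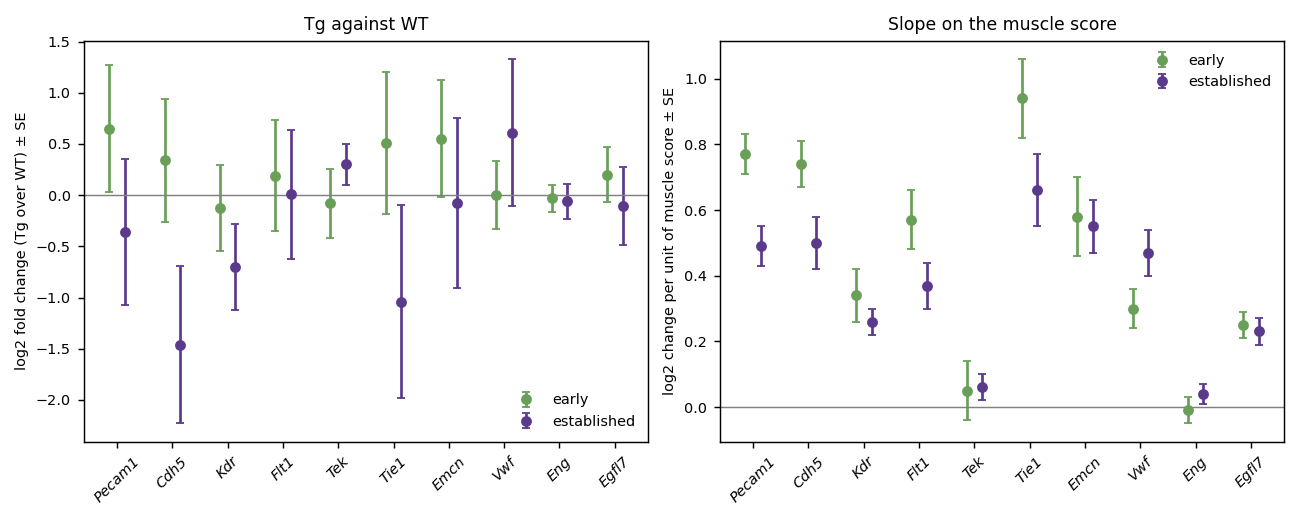
Left, log2 fold change of Fosl-2(Tg) over WT with its SE for each endothelial gene in the early (green) and established (purple) phenotype. Right, log2 change per unit of the muscle score with its SE from fits with genotype in the model, in which 8 of 10 genes passed with slopes above 0 at both stages and *Tek* and *Eng*, which did not pass, lay near 0.

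The relation of each gene to the muscle content of the same library was then examined. The muscle score was the mean log2 CPM of the 24 skeletal muscle genes, none of which is a member, and ran from 2.69 to 8.80 over the early and from 1.46 to 9.77 over the established libraries, with a largest gap between neighbouring libraries of 1.56 and 2.04. The largest gap lay between scores of 6.02 and 7.58 in the early and of 4.99 and 7.03 in the established libraries. Whether the libraries formed separate clusters was not tested. In fits that also held genotype, 8 of the 10 members rose with the muscle score in the early libraries (edgeR's quasi-likelihood test, FDR of at most 0.05), where 4.84% of all genes rose, and the same 8 rose in the established libraries, where 6.05% of all genes did. The 2 members that did not pass were *Tek* and *Eng* in both cases. Whether early mice of the same replicate number were paired was not determined. With the replicate number as a block (14 libraries, an alternative added after seeing the data), 3 of the 10 members passed in the early mice, where 2.1% of all genes rose. These were *Pecam1* (0.59 ± 0.09, FDR = 0.00684), *Cdh5* (0.69 ± 0.11, FDR = 0.00608) and *Tie1* (1.24 ± 0.21, FDR = 0.0102). *Kdr* (0.21), *Flt1* (0.49), *Emcn* (0.78), *Vwf* (0.26) and *Egfl7* (0.26) did not pass in that fit, with FDR from 0.141 to 0.963. With the same block no member passed in the established mice, where 1.35% of all genes rose. *Egfl7* had the lowest FDR among the members there (0.28 ± 0.09, FDR = 0.276), and *Pecam1* was at 0.27 ± 0.12 (FDR = 0.403). The early and established slopes come from different mice, but their difference was not tested.

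Per unit of the score, which is a doubling of the muscle genes' typical level, *Tie1* rose by 0.94 ± 0.12 on the log2 scale in early (FDR = 2.41e-05) and by 0.66 ± 0.11 in established mice (FDR = 0.00183). *Pecam1* rose by 0.77 ± 0.06 (FDR = 9.4e-08) and 0.49 ± 0.06 (FDR = 0.000109), and *Cdh5* by 0.74 ± 0.07 (FDR = 2.55e-07) and 0.50 ± 0.08 (FDR = 0.00135). The junction genes thus ran close together at both stages. *Emcn* rose by 0.58 ± 0.12 early and 0.55 ± 0.08 established, *Flt1* by 0.57 ± 0.09 and 0.37 ± 0.07, and *Kdr* by 0.34 ± 0.08 and 0.26 ± 0.04. *Vwf* rose by 0.30 ± 0.06 early and 0.47 ± 0.07 established. *Egfl7* had the shallowest slope of those that passed at each stage (0.25 ± 0.04 and 0.23 ± 0.04). *Tek* had slopes of 0.05 ± 0.09 (FDR = 0.768) and 0.06 ± 0.04 (FDR = 0.373), and *Eng* of -0.01 ± 0.04 (FDR = 0.921) and 0.04 ± 0.03 (FDR = 0.507). Intervals of 2 SE for *Tek* reached from -0.13 to 0.23 early and from -0.01 to 0.13 established, below the slopes of *Pecam1* and *Cdh5*, but the differences between genes were not tested.

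As correlations across libraries, of which 20 were computed with each library taken as independent of the others, Pearson's r between log2 CPM and the muscle score was highest for *Pecam1*, at 0.97 over the 15 early libraries (Spearman's rho 0.91, permutation test, two-sided, p = 1e-05, the smallest that 100000 permutations can give, adjusted p = 6.67e-05) and 0.92 over the 13 established ones (rho 0.95, permutation p = 5e-05, adjusted p = 0.000167). *Cdh5* had r of 0.96 early (rho 0.86, permutation adjusted p = 6.67e-05) and 0.85 established (rho 0.88, adjusted p = 0.000667), and *Tie1* 0.94 and 0.88 (rho 0.85 and 0.92, permutation adjusted p of 6.67e-05 and 0.000543). The other called genes had r between 0.67 and 0.87 (rho 0.79 to 0.91, permutation adjusted p of at most 0.00951 for r). *Tek* had r of 0.21 and 0.27 (rho 0.25 and 0.34, permutation adjusted p of 0.491 and 0.437) and *Eng* of -0.12 and 0.23 (rho -0.15 and 0.32, permutation adjusted p of 0.662 and 0.491). Without the 2 libraries farthest from the median score, r was 0.95 for *Pecam1*, 0.94 for *Cdh5* and 0.91 for *Tie1* early and 0.90, 0.73 and 0.82 established, and it stayed at or above 0.69 for all 8 genes.

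Within single genotypes all 8 slopes stayed above 0 at both stages. Exact permutation tests of r within genotypes (40 tests, two-sided) gave an r for *Pecam1* of 0.97 in early WT (adjusted p = 0.00865), 0.96 in early Fosl-2(Tg) (adjusted p = 0.00865), 0.99 in established WT (adjusted p = 0.00865) and 0.87 in established Fosl-2(Tg) mice (adjusted p = 0.0101). In the fits within established Fosl-2(Tg) mice, 0 of 10 members passed at FDR of at most 0.05, where 1.54% of all genes rose. *Pecam1* was nearest (0.59 ± 0.12, FDR = 0.0633). Within established WT mice 8 of 10 passed, where 4.84% of all genes rose, and the *Pecam1* slope was 0.44 ± 0.03. The difference of these slopes between genotypes was not tested. Without the 2 libraries farthest from the median score, 4 of 10 members passed in the established mice, where 2.31% of all genes rose. These were *Pecam1*, *Cdh5*, *Emcn* and *Vwf*, while *Kdr* (slope 0.13), *Flt1* (0.40), *Tie1* (0.74) and *Egfl7* (0.22) did not pass. In early mice *Kdr* did not pass without these 2 libraries (0.36, FDR = 0.124), without WT early replicate 1 (0.30, FDR = 0.0739) or without WT early replicate 4 (0.34, FDR = 0.0662). *Tek* tracked the score in established WT mice (r = 0.93, exact permutation adjusted p = 0.0361), over a level range of only 13.3 to 19.5 CPM.

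**Figure D3:**
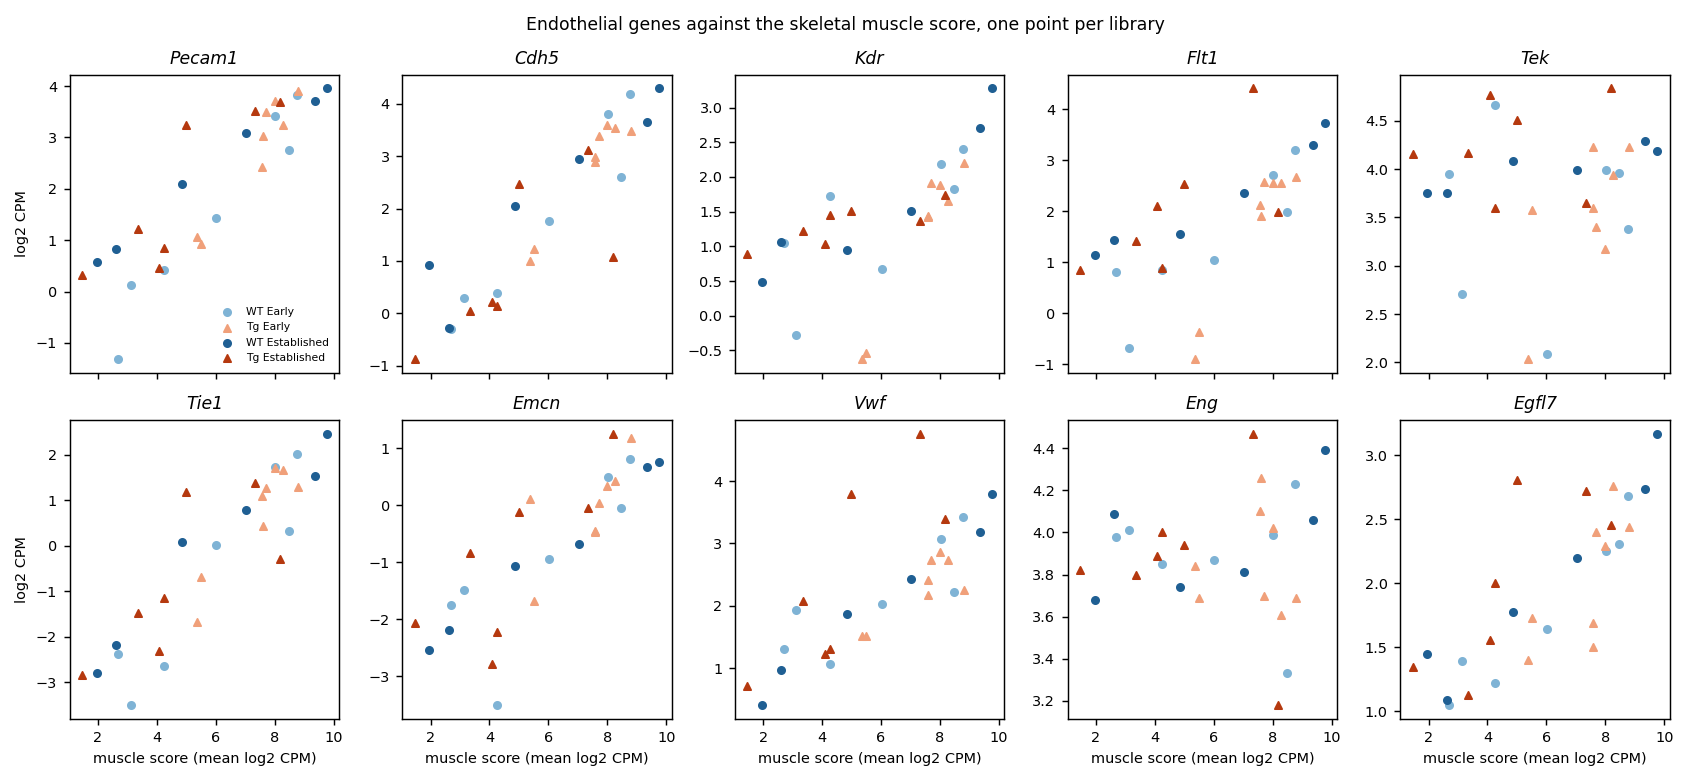
Log2 CPM of each endothelial gene against the muscle score (mean log2 CPM of 24 skeletal muscle genes), with 1 point per library, circles for WT and triangles for Fosl-2(Tg), pale for early and dark for established. *Pecam1*, *Cdh5* and *Tie1* climb over the range of the score, and *Tek* and *Eng* do not. *Cdh5* in established Fosl-2(Tg) replicate 5 (2.02 CPM) lies far below the other libraries of similar muscle score.

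The members themselves fell into the same pattern when each gene's log2 CPM was taken relative to its group mean over the 28 libraries, which removes the 4 group means but leaves shared library, depth and muscle content. Pairs among the 8 genes other than *Tek* and *Eng* had r from 0.58 to 0.96 (median 0.84). *Tek* had r from 0.03 to 0.53 with these 8 genes (median 0.17) and *Eng* from 0.00 to 0.32 (median 0.20). The partner receptors *Tek* and *Tie1* were thus unlike in their variation as well as in level. These values are descriptions, with no test.

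**Figure D4:**
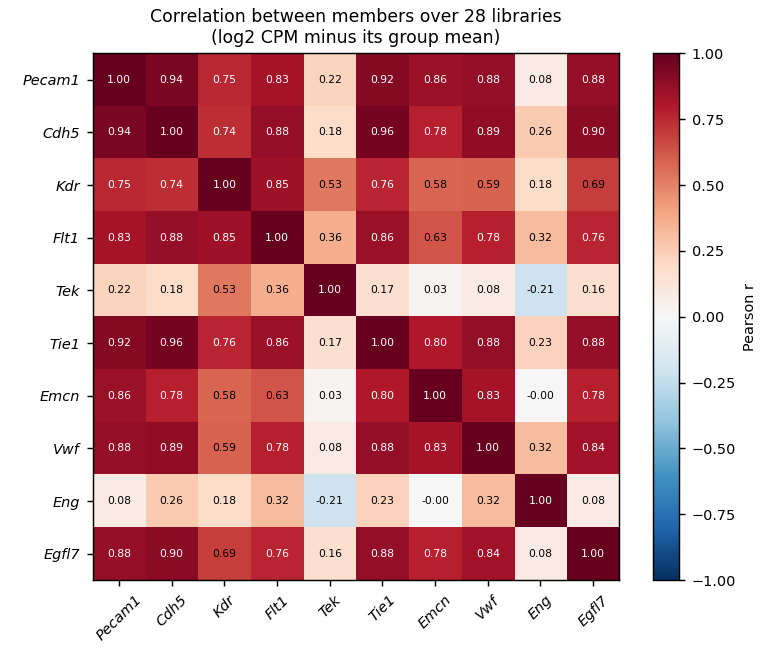
Pearson's r between each pair of endothelial genes over 28 libraries, on log2 CPM minus the mean of the library's group. A block of high r joins 8 genes (0.58 to 0.96), while the rows of *Tek* and *Eng* stay pale.

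In a few mice the balance between members was unusual, which was seen in the values and then described by ratios of counts within a library (exact 95% intervals, covering counting error only). Counts of *Cdh5* over *Pecam1* lay between 0.743 and 2.33 in all early mice. In established WT mice the ratio ran from 0.436 to 1.29 (median 0.966) and in established Fosl-2(Tg) mice from 0.159 to 0.826 (median 0.575). The lowest, 0.159 (interval 0.103 to 0.238), belonged to Fosl-2(Tg) established replicate 5, a male with 28 *Cdh5* and 176 *Pecam1* counts. On the log2 scale the established genotypes differed by -0.95 (WT -0.12 ± 0.57, n = 6, Fosl-2(Tg) -1.07 ± 0.80, n = 7, mean ± SD, exact permutation test, two-sided, p = 0.0256, adjusted p = 0.1282 over 5 ratio comparisons), which did not hold after adjustment. Because this pair of genes was picked from the same values, neither p covers that choice. Leaving out 1 library at a time gave differences from -1.16 to -0.68. The early difference was -0.29 (exact permutation p = 0.169). Counts of *Flt1* over *Kdr* lay between 0.533 and 2.14 in 27 libraries and reached 8.55 (interval 6.61 to 11.2) in Fosl-2(Tg) established replicate 7, with 556 *Flt1* and 65 *Kdr* counts.

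**Figure D5:**
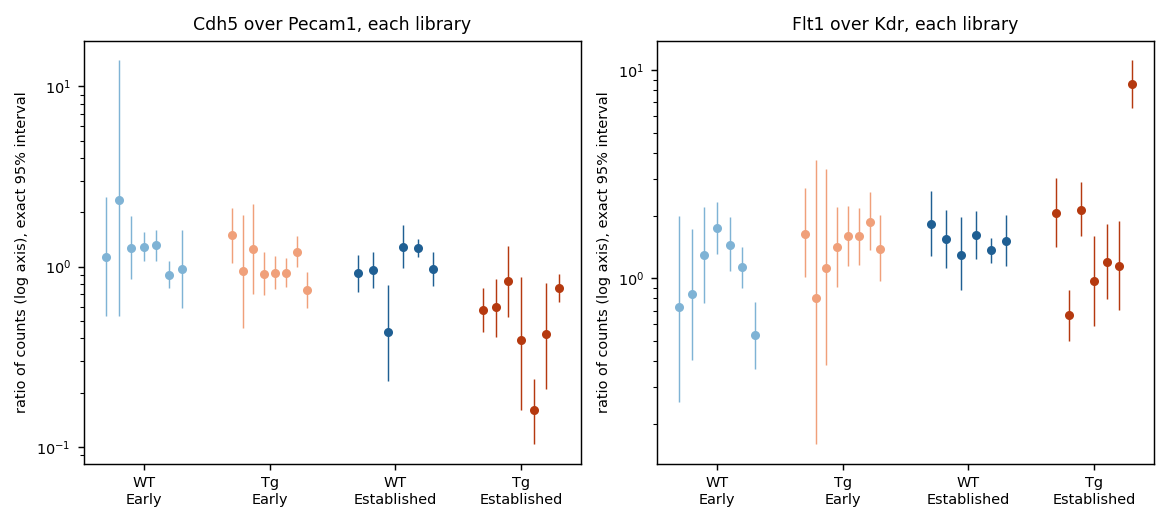
Ratio of counts within each library on a log axis, for *Cdh5* over *Pecam1* (left) and *Flt1* over *Kdr* (right), with exact 95% intervals for counting error. Fosl-2(Tg) established replicate 5 is the lowest point on the left (0.159) and replicate 7 the highest on the right (8.55).

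The other genes of the endothelial pathways were read from lists that share no gene with the members. Calls are those of edgeR unless DESeq2, which tested more genes in most lists, is named, and genes called by DESeq2 alone were named after their values were seen. Of 12 ligands, 11 were tested, and none was called between genotypes at either stage, while DESeq2 called 1 higher (*Vegfd*) and 1 lower (*Angpt1*) in the established phenotype. *Vegfa*, the main VEGF ligand, was at 0.42 ± 0.40 in the established phenotype (log2 fold change, FDR = 0.517), and *Jag1*, a Notch ligand, was at 0.00 ± 0.15 (FDR = 0.998). Of 13 tested receptors none was called, the most abundant being *Tgfbr2*, the type II TGF-β receptor (-0.06 ± 0.12), and *Bmpr2*, the type II BMP receptor (-0.05 ± 0.07), which other cells of tendon also express. Among 11 transcription factors tested in the established phenotype, 1 was lower, *Lyl1*, a basic helix-loop-helix factor of endothelial and blood cells (-0.63 ± 0.16, FDR = 0.0363). The list of transcription factors had a median of -0.40, with 9 of 11 below 0 and 5 at an unadjusted p under 0.05, and DESeq2 called 4 of 13 lower (*Lyl1*, *Sox7*, *Heyl* and *Nr2f2*). Over all genes in the established phenotype, 50.7% were above 0 and 4213 of 15862 had an unadjusted p under 0.05. DESeq2 called 1134 of 21971 genes lower. A shift of the list against all genes was not tested. Of 16 other pan-endothelial genes, 3 arterial, 5 venous or activated and 6 capillary genes, none was called, with list medians of -0.29, -0.17, -0.04 and -0.25. Of 11 genes of pericytes and smooth muscle, 1 was lower, *Acta2*, the smooth muscle actin (-0.72 ± 0.19, FDR = 0.0444). In the early phenotype no gene of these lists was called by edgeR, and DESeq2 called 1 receptor lower (*Nrp1*).

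Of the lists of other cells, edgeR called no skeletal muscle, erythroid, platelet, macrophage, Schwann cell or keratinocyte gene between genotypes at either stage, and no adipocyte gene passed its filter on low counts. DESeq2 called 1 erythroid and 2 macrophage genes lower early, and in the established phenotype 6 of 7 erythroid genes, 1 platelet and 1 macrophage gene higher, and 1 Schwann cell gene higher and 1 lower. Over all genes, DESeq2 called 2 higher and 23 lower of 21119 early, and 1045 higher and 1134 lower of 21971 established. The list medians (log2) were 0.45 early and -1.72 established for skeletal muscle, -0.99 and 2.38 for erythroid cells, -0.52 and -0.05 for platelets, -0.45 and 0.12 for macrophages, -0.35 and 0.61 for Schwann cells and -0.28 and -0.11 for keratinocytes. The erythroid list, with 4 of 4 tested genes above 0 and 3 at an unadjusted p under 0.05 in the established phenotype, summed to 8.94 to 20.1 CPM in established WT and 10.3 to 127 CPM in established Fosl-2(Tg) libraries. Its part in the established endothelial values was not tested.

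On the muscle score, slopes above 0 passed for 2 of 11 ligands early and 2 of 11 established, 4 of 13 receptors at both stages, 3 of 10 and 3 of 11 transcription factors, 9 of 15 and 9 of 16 other pan-endothelial genes, 4 of 6 and 5 of 6 capillary genes, and 5 of 11 genes of pericytes and smooth muscle at both stages. Of all genes, 4.84% rose early and 6.05% established. No arterial, venous or lymphatic gene passed at either stage, with 3 arterial, 4 or 5 venous and 5 lymphatic genes tested. In the established libraries 2 of the 3 arterial genes had an unadjusted p under 0.05, as did 3545 of all 15862 genes in either direction. The differences between lists were not tested. Genes picked after their values were seen show the size of these slopes. *Gpihbp1*, which anchors lipoprotein lipase on capillary endothelium, rose by 1.09 ± 0.12 early (FDR = 7.07e-06) and 0.72 ± 0.12 established (FDR = 0.00141). *Rgs5*, a regulator of G-protein signalling in pericytes, rose by 1.13 ± 0.05 (FDR = 9.35e-11) and 0.80 ± 0.14 (FDR = 0.00235). *Sox18*, a SOX factor of vascular endothelium, rose by 0.96 ± 0.14 (FDR = 0.000134) and 0.63 ± 0.11 (FDR = 0.00262), and *Robo4*, an endothelial guidance receptor, by 0.89 ± 0.11 (FDR = 2.46e-05) and 0.60 ± 0.10 (FDR = 0.0014). Of 8 macrophage genes, 4 fell with the score early and none passed established, where 330 of 15138 genes fell early and 228 of 15862 established. No erythroid, platelet, Schwann cell, keratinocyte or tendon gene passed at either stage, and the muscle genes that make up the score passed for 23 of 24 early and 24 of 24 established. *Prox1* had slopes of 0.05 ± 0.06 and 0.04 ± 0.06, and *Lyve1* of -0.05 ± 0.07 and -0.02 ± 0.04.

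As a description, the mean log2 CPM of the 10 members had an r of 0.94 with the muscle score over the 15 early and of 0.93 over the 13 established libraries, of 0.96 and 0.97 with the pericyte and smooth muscle list, of 0.97 and 0.96 with the capillary list and of 0.99 and 0.99 with the other pan-endothelial list, all points sharing the library and its scaling. With the arterial list it was 0.80 and 0.91, with the venous list 0.11 and 0.57, and with the lymphatic list 0.26 and 0.43. With lists of other cells it was -0.73 and 0.39 for macrophages, -0.49 and 0.13 for platelets, -0.14 and -0.09 for erythroid cells, 0.02 and -0.20 for Schwann cells, 0.06 and -0.23 for keratinocytes, 0.40 and 0.09 for adipocytes and 0.49 and -0.12 for tendon genes. The summed platelet list, a source of *Pecam1* and *Vwf*, lay between 37.4 and 107 CPM over all libraries, and the summed macrophage list between 485 and 1030 CPM. Adipocyte genes stayed at or under 1.85 CPM in sum. The part that muscle, pericyte or blood cell content had in the endothelial values was not tested.

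Outside all lists, 14439 genes with a mean of at least 1 CPM were ranked by the r of their group-centred log2 CPM with the mean profile of the members over 28 libraries. The most alike were *Ablim3*, an actin-binding LIM protein (r = 0.95), *Sptb*, the erythrocyte and muscle β-spectrin (0.95), *Mcam*, the endothelial and pericyte adhesion molecule CD146 (0.95), *Akap6*, an anchoring protein of striated muscle (0.94), and *Nup210*, a nuclear pore protein (0.94). For comparison, *Cdh5* had an r of 0.96 and *Eng* of 0.29 with the mean profile, of which both are a part. *Sptb* ranged from 9.35 to 120 CPM and *Mcam* from 0.697 to 7.08 CPM over the mice.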

How the data were processed

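RNA was isolated from tail tendon fascicles of 28 mice, 1 library per mouse, depleted of ribosomal RNA and sequenced in paired-end mode. Per the labels and the study's methods, reads were aligned to GRCm39 with STAR and the authors deposited whole-number counts per gene from featureCounts, not normalized. Tool versions and the strand and multimapping settings were not given in the sources used here. The table held 25719 identifiers, 25505 with a symbol, and 3396 without a count in any library.

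Counts were analysed in R 4.3.3 with edgeR 4.0.16 (TMM scaling, filterByExpr with a minimum count of 10 and a minimum total of 15, quasi-likelihood test, Benjamini-Hochberg FDR over all genes tested, called at 0.05). Genotypes were fitted within each stage. Stage effects and the interaction were fitted over all 28 libraries. Levels were CPM, with 2 added as the prior count before taking log2. The relation to muscle was fitted within each stage with genotype and the muscle score as terms. Alternatives were DESeq2 1.42.0, RLE scaling, no filter, a prior count of 0.5, removal of the muscle genes before scaling, the muscle score or sex as a covariate, females only, a replicate block and leaving out each library. The alternatives of RLE scaling and a replicate block for the muscle relation, a replicate block and leaving out both established males for the stage effects, and sex as a covariate for the interaction were chosen after seeing the data. Correlations used 100000 permutations (exact within genotypes) in python 3.11.15 with scipy 1.17.1. Scripts were tested on simulated data.

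The 10 members and the gene lists were chosen with earlier results of these data known. Beyond the members, up to 4 called genes of each list (otherwise the 2 of highest CPM) and the 5 genes most like the members were to be named, and others are said to be chosen after their values were seen. Replicates were separate mice, and no pair of libraries within a group agreed within sampling noise (85 pairs, lowest chi-square per degree of freedom 7.42). Early mice of the same replicate number correlated in their deviations (r of 0.14 to 0.40 for 7 pairs), but mice of different numbers were not compared. These values thus do not show pairing. The blocked value is an alternative and is given where it changed a count of calls. The early block left the genotype comparison without a call. Library totals of 9645598 to 66894396 counts leave *Tie1* and *Emcn* at 3 counts or fewer in 6 libraries each. The exact intervals of count ratios cover counting error only, whereas intervals of 2 SE come from the edgeR fits. Promoters were read from GRCm39 with the GENCODE M39 annotation for 9 members, and 1 is not reported here.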

Additional observations from a re-analysis of the deposited data

Results flagged for a closer look

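*Flt1* in Fosl-2(Tg) established replicate 7, at 21.2 CPM, stood far from the other 6 mice of its group, the next at 5.65 CPM (gap 0.797 of the range, against a critical value of 0.568). *Emcn* in Fosl-2(Tg) established replicate 5, at 2.31 CPM, stood apart in the same way from the next at 0.875 CPM (0.636 against 0.568). These were 2 of 40 gene and group pairs checked on CPM. The critical values assume normally distributed values, which CPM need not be, so no rate by chance can be given. On the log2 scale, which was not checked in this way, *Flt1* lay at 4.41 with the next mouse at 2.52 and the lowest at 0.85. *Emcn* lay at 1.26 with the next at -0.05 and the lowest at -2.79. Without replicate 7, the established *Flt1* difference was -0.84 instead of 0.01, and the *Vwf* difference was -0.03 instead of 0.61.

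Among the other genes read, the genotype effect differed between stages by the interaction term (edgeR, established minus early, log2) for *Nrp1*, a co-receptor of VEGF and semaphorins, by 0.41 (FDR = 0.0251), for *Prox1* by -1.73 (FDR = 0.00922), for *Tnmd* by -1.94 (FDR = 0.0358) and for *Scx* by -1.41 (FDR = 0.0457). *Nrp1* had median levels of 54.5 CPM in early WT, 44.0 CPM in early Fosl-2(Tg), 51.9 CPM in established WT and 56.5 CPM in established Fosl-2(Tg) mice. Stage and sex can hardly be told apart in these differences.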

How the results depend on the processing

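No member was called between genotypes at either stage under any alternative. The established *Cdh5* difference stayed below 0, from -2.12 to -0.91 when a library was left out (FDR 0.0974 to 0.5) and from -1.83 to -0.66 otherwise (FDR 0.0747 to 0.565). Of the 10 members, 8 rose with the muscle score in the early libraries, and 7 to 8 when a library was left out. Within early WT mice 5 rose (2.82% of all genes) and within early Fosl-2(Tg) mice 5 (3.14% of all genes). Of the 8 that rose in established libraries, 4 passed without the 2 libraries farthest from the median score (2.31% of all genes rose). Within established Fosl-2(Tg) mice, where only 7 libraries were fitted, 0 passed (1.54% of all genes rose). With the muscle score as a covariate, 1 member (*Vwf*, 1.55, FDR = 0.0394) passed the interaction, where 7.73% of all genes passed. In that setting 4 members passed the stage effect in Fosl-2(Tg) mice, where 43.1% of all genes passed. With a replicate block, 2 passed the stage effect in Fosl-2(Tg) mice (*Cdh5* -1.73, FDR = 0.0466, and *Tek* 0.94, FDR = 0.0231), where 44.9% of all genes passed. When a library was left out, 0 to 2 passed it. The cause of these changes was not tested. Whether the replicate numbers pair the established mice was not determined (r of -0.23 to 0.69). With the replicate block, 3 members passed the muscle relation in early mice (2.1% of all genes rose) and 0 in established mice (1.35% of all genes rose). The block changed no member call in the genotype comparisons, the interaction or the stage effect in WT.

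Direction changed for values that were never called. With the muscle score as a covariate, the early genotype values were -0.06 for *Cdh5*, -0.34 for *Flt1* and -0.07 for *Egfl7*, the established ones 0.23 for *Pecam1*, 0.24 for *Tie1*, 0.65 for *Emcn* and 0.24 for *Egfl7*, and the stage value of *Vwf* in WT -0.07. With the replicate block, *Vwf* was at 0.13 early and -0.04 established, *Flt1* at -0.62 established, and the stage values in WT were -0.05 for *Cdh5* and -0.22 for *Vwf*. Without the established males, these were -0.32 and -0.34. In females only, *Eng* was at 0.13 and *Egfl7* at 0.14, and *Egfl7* at 0.0063 with sex as a covariate. *Flt1* was at -0.00084 established by DESeq2. The early muscle slope was -0.02 for *Tek* within WT and -0.11 with the replicate block, and for *Eng* 0.02 without the 2 farthest libraries and 0.01 within Fosl-2(Tg).

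When a library was left out, early genotype values ran from -0.29 to 0.06 for *Kdr*, -0.23 to 0.15 for *Tek*, -0.15 to 0.28 for *Vwf* and -0.11 to 0.03 for *Eng*. Established values ran from -0.69 to 0.02 for *Pecam1*, -0.84 to 0.44 for *Flt1*, -0.77 to 0.48 for *Emcn*, -0.03 to 1.11 for *Vwf*, -0.19 to 0.04 for *Eng* and -0.26 to 0.20 for *Egfl7*. The *Eng* early slope ran from -0.04 to 0.03, the *Vwf* interaction from -0.01 to 1.10, and the stage values in WT from -0.29 to 0.75 for *Cdh5* and -0.32 to 0.43 for *Vwf*.

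Over all genes, the genotype calls numbered 6 early (4 to 25 under the alternatives, 25 by DESeq2, 4 to 12 with a library left out) and 1032 established (560 in females only to 2179 by DESeq2, 361 to 1166 with a library left out). Interaction calls numbered 1195 (725 to 1779 and 702 to 1876), stage calls 935 in WT (432 to 1561 and 419 to 1391) and 7685 in Fosl-2(Tg) (4887 to 8227 and 6886 to 7813). Slopes on the muscle score passed for 1062 genes early (322 with the replicate block to 1079, and 639 to 2698) and 1188 established (226 with the replicate block to 1178, and 764 to 1290).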

Other observations

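Other vascular genes, named after their values were seen, changed between the stages in Fosl-2(Tg) mice (edgeR, FDR of at most 0.05, where 47.8% of all genes were called). *Lyve1* rose by 1.75 and *Prox1* fell by 1.32 on the log2 scale, *Angpt1*, the agonist of the *Tek* receptor, fell by 1.03, and *Vegfd*, a ligand of lymphatic growth, rose by 0.62. *Acta2* fell by 1.31. In WT mice *Lyve1* rose by 0.89 and *Cd93*, an endothelial lectin, fell by 1.07. Age and sex can hardly be told apart in these changes.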
